A study of Homo sapiens with 40 samples.

Results

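The replication-dependent histone genes encode the linker histone H1 and the core histones H2A, H2B, H3 and H4, and 63 of them were described here out of the 57992 genes in the deposited count table. They were chosen by name: 90 gene symbols began with HIST1H to HIST4H, 15 symbols with a pseudogene ending were dropped, and 12 more had fewer than 10 counts over all libraries (4 of these, HIST1H2AA, HIST1H2AK, HIST1H3D and HIST1H4G, had none). The members are 6 H1, 13 H2A, 21 H2B, 11 H3 and 12 H4 genes. They lie in 4 clusters: 44 in HIST1 on chromosome 6, 14 in HIST2 and 4 in HIST3 on chromosome 1, and 1 (HIST4H4) on chromosome 12. RefSeq lists 4 of them (HIST2H2BA, HIST2H2BC, HIST2H2BD and HIST3H2BA) as pseudogenes, which the name rule did not drop. Depth was uneven among them, with 26 members at 1000 counts or more in total and 12 under 100. HIST2H2AA3 and HIST2H2AA4, HIST2H3A and HIST2H3C, and HIST2H4A and HIST2H4B are near-identical copies, so the split of counts within each of these pairs is uncertain.

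Histone genes of this kind are switched on in S phase, when each new stretch of DNA needs new nucleosomes. Their mRNAs have no introns and, unlike other mRNAs, end in a conserved stem-loop bound by SLBP instead of a polyA tail, and NPAT drives their transcription at the histone locus body in the nucleus. Several members, HIST1H1C, HIST1H2AC, HIST1H2BC, HIST1H2BD, HIST1H2BK and HIST2H2BE, are also known to give polyadenylated transcripts. All libraries here were polyA-selected, so the levels below are those of histone RNA that passed the selection and not of all histone mRNA.

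The 40 libraries came from HEK293T, a human embryonic kidney cell line, expressing the peroxidase APEX2 at 1 of 4 sites: the mitochondrial matrix (MITO), the endoplasmic reticulum membrane (ERM), the cytosol (NES) or the nuclear lamina (LMNB1). Cells in the s6G or s4U arms took up 6-thioguanosine or 4-thiouridine at 100 uM, nucleosides that enter newly made RNA, before biotin-phenol at 0.5 mM for 30 min and hydrogen peroxide at 1 mM for 1 min. The labels give 5 h for the thionucleoside and 4.5 h for metabolic labelling. The APEX-only arms received biotin-phenol and peroxide but no thionucleoside, and the unlabelled arms received peroxide with neither. Each arm was sequenced before (input) and after (enriched) capture on streptavidin. Inputs were made from 300 ng of RNA with 11 PCR cycles, and enriched libraries had 15 cycles. The number of cycles therefore goes with every comparison of enriched with input. ERM had an s6G arm with 4 enriched and 4 input libraries, and NES an s6G arm with 2 and 2. LMNB1 had s6G, APEX-only and unlabelled arms, and MITO those and an s4U arm, each with 2 and 2. ERM and NES therefore have no arm without a thionucleoside, and what streptavidin retains without labelling was measured in LMNB1 and MITO only. The characteristics fields of 8 libraries titled s6G (the 4 enriched ERM and the 4 s6G LMNB1 libraries) say s4U, and the titles and the series design were followed.

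Totals ran from 123341 to 14496768 counts per library, with a median of 5379131, and the unlabelled enriched libraries were the shallowest of their constructs (123341 and 842177 counts in MITO, 1492243 and 3876715 in LMNB1). Genes that HEK293 lines are known to express were counted in every library, with NEFL at 21.4 to 198 CPM (counts scaled to a common library total) and PAX2 at 0.157 to 15.5 CPM, along with NEFM and INA. Among markers of other cell types, LYZ was at 0 in 38, CD3E in 37, HBB in 37, PTPRC in 33, PECAM1 in 27 and ALB in 14 of the 40 libraries, and COL1A1 was counted in all of them at 3.22 to 77.2 CPM. Levels below are CPM after TMM scaling, which sets the bulk of genes equal between libraries. CPM is not per length, so levels are compared between libraries for the same gene or sum and not between genes. Tests are edgeR's quasi-likelihood test with Benjamini-Hochberg adjustment over all genes, called at an adjusted p under 0.05, and ± is a standard error from the fit unless marked SD. No p-value here reaches beyond the variation among libraries that share a group label.

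The promoters of the 5 classes differ in sequence. RefSeq promoter windows (GRCh38.p14, 250 bases before to 50 after the start) were found for 55 of the 63 members among 35116 windows in all, and 4 motifs were searched on both strands: the octamer ATTTGCAT bound by POU factors, the sequence TATAAA of the TATA box, the NF-Y motif (CCAAT) and the H4 promoter motif (GGTCC). The 150 bases before the start are shown for 8 members on which the results below turn, 5′ to 3′ on the gene's strand, with letters of any of the 4 motifs in capitals on either strand (adjacent capitals can be overlapping matches of different motifs).
HIST1H1E (H1, chr6:26156179-26156328, + strand): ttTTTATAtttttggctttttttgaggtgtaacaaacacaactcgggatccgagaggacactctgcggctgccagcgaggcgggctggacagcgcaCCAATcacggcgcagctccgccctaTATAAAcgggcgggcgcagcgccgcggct
HIST1H1C (H1, chr6:26056471-26056620, - strand): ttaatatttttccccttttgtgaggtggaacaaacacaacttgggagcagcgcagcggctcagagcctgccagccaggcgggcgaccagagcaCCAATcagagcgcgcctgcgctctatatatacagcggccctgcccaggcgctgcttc
HIST2H2BE (H2B, chr1:149886683-149886832, - strand): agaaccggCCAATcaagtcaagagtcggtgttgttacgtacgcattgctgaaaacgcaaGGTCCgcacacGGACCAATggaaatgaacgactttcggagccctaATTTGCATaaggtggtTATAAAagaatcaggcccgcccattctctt
HIST2H2AC (H2A, chr1:149886768-149886917, + strand): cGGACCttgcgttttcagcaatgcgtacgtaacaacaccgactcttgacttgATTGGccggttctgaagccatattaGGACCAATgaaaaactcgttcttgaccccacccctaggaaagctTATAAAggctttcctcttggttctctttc
HIST1H2BK (H2B, chr6:27146859-27147008, - strand): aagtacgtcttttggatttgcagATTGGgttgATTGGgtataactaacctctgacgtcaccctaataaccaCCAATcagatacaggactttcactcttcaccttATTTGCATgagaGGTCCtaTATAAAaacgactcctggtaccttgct
HIST1H3B (H3, chr6:26032100-26032249, - strand): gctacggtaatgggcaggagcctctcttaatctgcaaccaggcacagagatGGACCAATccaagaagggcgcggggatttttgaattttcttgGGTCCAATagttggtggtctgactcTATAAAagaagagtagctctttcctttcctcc
HIST1H4B (H4, chr6:26027284-26027433, - strand): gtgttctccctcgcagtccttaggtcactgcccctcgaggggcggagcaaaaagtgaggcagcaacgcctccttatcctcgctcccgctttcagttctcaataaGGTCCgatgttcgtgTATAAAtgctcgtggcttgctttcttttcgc
HIST1H4I (H4, chr6:27139132-27139281, + strand): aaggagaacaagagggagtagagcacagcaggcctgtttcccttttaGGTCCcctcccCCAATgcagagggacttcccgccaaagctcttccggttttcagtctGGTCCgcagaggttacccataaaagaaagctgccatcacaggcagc

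The octamer was found in 21 of the 55 member windows (38.2%), against 1.77% of all windows. All of these were H2A (8 of 12) or H2B (13 of 17) genes. In the H2B genes it began 49 bases upstream of the start in the median, and 46 bases upstream in HIST2H2BE and HIST1H2BK above. TATAAA was in 39 member windows (70.9%), against 11.5% of all windows, and in 32 of them it began between 40 and 20 bases upstream, where 2.84% of all windows had it. CCAAT was in 46 member windows (83.6%), against 34.6% of all windows. It was in every H1 (6), H2A (12), H2B (17) and H3 (10) window and in 1 of 10 H4 windows, that of HIST1H4I. GGTCC was in all 10 H4 windows at 47 to 44 bases upstream, and in 46.3% of all windows at any position. HIST1H1C and HIST1H4I have no TATAAA in the stretch shown. Matches are letters in a window and not shown binding. HIST2H2BE and HIST2H2AC start 236 bases apart on opposite strands and share the sequence between them. Among the members with a promoter window, 7 such H2A and H2B pairs were found, with starts 230 to 248 bases apart.

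**Figure D1:**
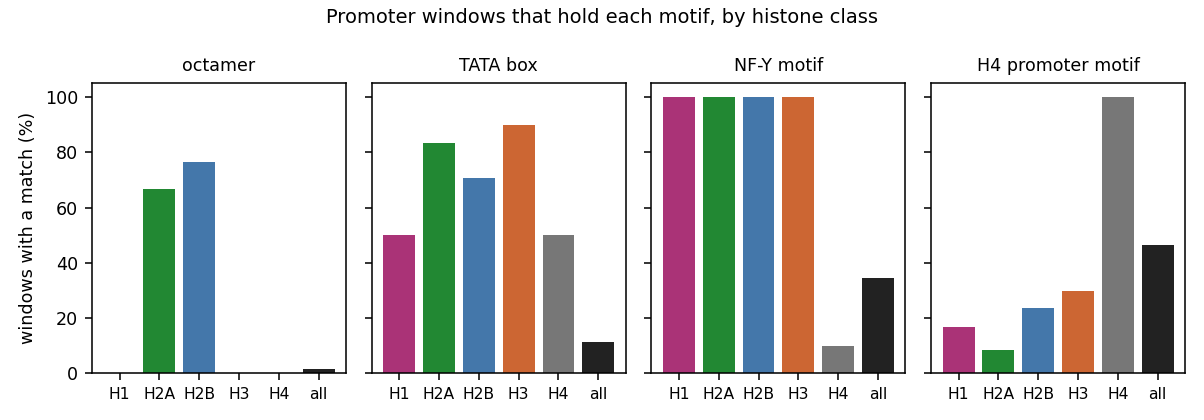
Percent of RefSeq promoter windows of each histone class, and of all 35116 windows, that hold each of 4 motifs on either strand. The octamer is confined to H2A and H2B among the classes, the NF-Y motif is in every H1, H2A, H2B and H3 window and the H4 promoter motif in every H4 window. An octamer between the starts of a divergent H2A and H2B pair can count for both genes.

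Summed over the 63 members, histone RNA was most abundant after enrichment at ERM and NES. The 4 enriched ERM libraries held 1491, 1703, 2206 and 2362 CPM against 429, 485, 577 and 621 CPM in their inputs, with means of 1940 ± 411 and 528 ± 86.8 (SD, n = 4), a ratio of 3.68. Every enriched ERM library was above every input. The NES libraries held 1069 and 1306 CPM after enrichment and 418 and 331 CPM before, a ratio of 3.17. In LMNB1 the s6G libraries held 668 and 563 CPM after and 581 and 399 CPM before enrichment, so the groups overlapped. The APEX-only LMNB1 means were 153 ± 47.8 and 154 ± 57.8 CPM (SD, n = 2). The unlabelled LMNB1 enriched libraries held 648 and 162 CPM, far apart from each other, against 196 and 111 CPM in their inputs. In MITO the enriched over input ratios were 1.34 with s6G, 1.74 with s4U, 1.09 with APEX only and 2.47 in the unlabelled arm, whose enriched libraries are shallow. In such bulk samples fewer cells in S phase and less histone RNA per cell cannot be told apart.

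**Figure D2:**
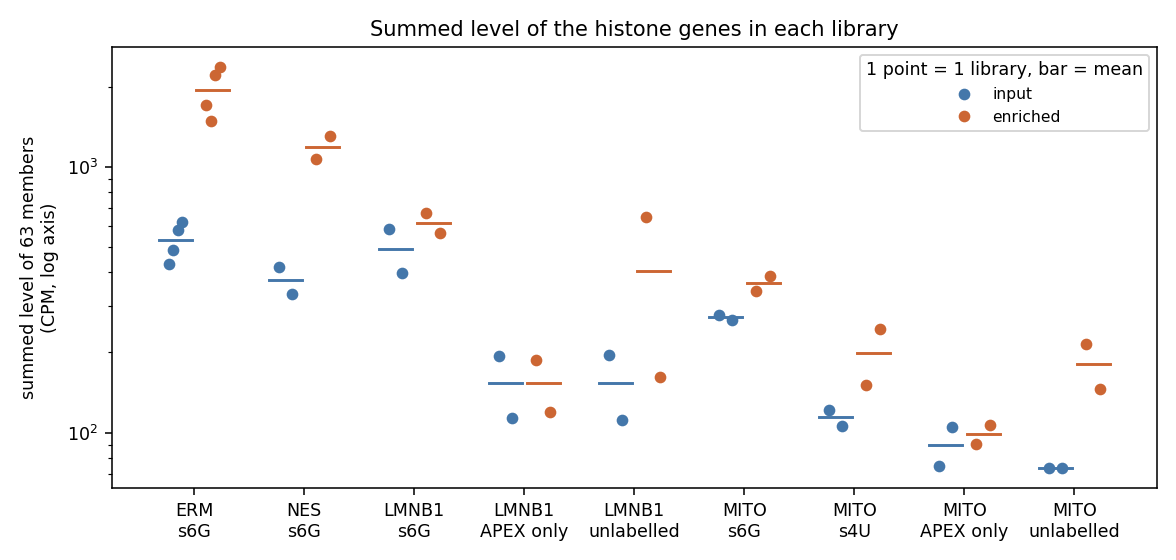
Summed level of the 63 histone genes (CPM, log axis) in each of the 40 libraries, by construct and arm; points are libraries and bars group means. Enriched ERM (1491 to 2362 CPM) and NES (1069 and 1306 CPM) libraries lie above all others, and inputs with s6G lie above the other inputs.

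The ERM enrichment covered nearly all members that could be tested. Of 49 tested members, 44 were higher and 1, HIST1H4I, was lower after enrichment, where 34.3% of all genes were called higher and 28.9% lower. The other 14 members were counted too rarely to be tested. The groups did not overlap, with enriched above input, for 39 of the 49, against 30.7% of all genes. The members' median log2 fold change was 2.38, and that of all genes 0.11. Members near 0 in the inputs were tested only through enriched libraries where they are high. Among the 24 members with at least 10 counts in every ERM input, 23 were higher and the median was 1.79. By class, all 3 tested H1, all 11 H2A and all 8 H3 genes rose, with 13 of 15 H2B and 9 of 12 H4 genes. The median log2 fold changes were 3.19 for H1, 3.57 for H2A, 3.22 for H3, 1.80 for H4 and 1.25 for H2B. The 6 members with a known polyadenylated transcript all rose, with a median of 1.33, and 38 of the 43 others rose, with a median of 2.65. Summed without those 6 members, the ERM ratio was 4.61 and the NES ratio 3.44.

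HIST1H1E (ENSG00000168298, chr6:26156329-26157115), which encodes linker histone H1.4, had the largest fitted log2 fold change at ERM, close to that of HIST2H2AB below. Its enriched ERM libraries stood at 413, 297, 304 and 358 CPM and their inputs at 4.80, 2.80, 2.50 and 4.49 CPM. The groups lie far apart, with a log2 fold change of 6.59 ± 0.42 (96.0-fold; edgeR adjusted p 5.59e-08). It made up 17.7% of the members' summed CPM after ERM enrichment. H1 genes as a class made up 9.99% of the sum in ERM inputs and 31.4% after enrichment, and 9.15% and 25.8% in NES. Without HIST1H1E the summed ERM ratio was 3.05 and the NES ratio 2.82. HIST1H1C (chr6:26055740-26056470), which encodes H1.2 and has a known polyadenylated form, was at 252, 199, 273 and 289 CPM after and 37.9, 38.7, 49.6 and 61.8 CPM before enrichment at ERM. Its change was 2.45 ± 0.18 (adjusted p 3.86e-09), smaller than that of HIST1H1E although every enriched library was again above every input.

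Among the H2A genes, HIST2H2AC (chr1:149886918-149887411) stood at 26.6, 14.0, 34.9 and 37.2 CPM after ERM enrichment and 1.92, 0.748, 1.11 and 1.46 CPM before, a log2 fold change of 4.45 ± 0.34 (edgeR adjusted p 5.57e-09). All 4 enriched libraries were well above the inputs. Its divergent partner HIST2H2BE (chr1:149884459-149886682), an H2B gene with a known polyadenylated form, was at 66.5, 65.8, 88.7 and 93.0 CPM after and 25.9, 34.8, 35.4 and 38.8 CPM before. That is a change of 1.25 ± 0.15 (adjusted p 8.91e-07), so the 2 genes that share a promoter region both rose but by different amounts. In the other pairs found above with both genes tested, the ERM log2 fold changes were 3.14 for HIST1H2BC and 1.42 for HIST1H2AC. They were 2.13 for HIST1H2BJ and 2.38 for HIST1H2AG, and 3.90 for HIST1H2BL and 2.65 for HIST1H2AI. HIST3H2BB stood at 0.85 and HIST3H2A at 0.39. HIST1H2AH, which lies next to HIST1H2BK but has no promoter window, stood at 4.58 and HIST1H2BK at 0.73. HIST1H2AC, which encodes H2A and also gives a polyadenylated form, was at 88.2, 114, 158 and 171 CPM after and 30.7, 46.4, 63.7 and 61.4 CPM before ERM enrichment, without overlap. HIST2H2AB rose most among H2A genes at 6.55 ± 0.60, from only 2 counts over the 4 ERM inputs. By counts its ratio was 124, with an exact 95% interval of 34.0 to 1027 that covers counting error only. HIST3H2A (chr1:228457364-228457873), the H2A gene of the smallest chromosome 1 cluster, was at 71.1, 88.5, 102 and 113 CPM after and 72.7, 77.0, 69.3 and 73.6 CPM before, which overlap. Its change of 0.39 ± 0.15 (adjusted p 0.0304) was called in 9 of 15 settings, with adjusted p from 0.000347 to 0.104, and was lost with median-ratio scaling (RLE), with DESeq2, and without enriched library 3 or 4 or input 1 or 3.

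H2B genes changed least in the median. HIST1H2BK (chr6:27138293-27146858) was at 122, 96.5, 179 and 208 CPM after ERM enrichment and 72.9, 79.8, 100.0 and 121 CPM before. These ranges overlap, and the change was 0.73 ± 0.21 (edgeR adjusted p 0.00697). HIST2H2BF rose more, from 4.48, 5.42, 4.81 and 4.20 CPM to 51.1, 37.5, 61.0 and 61.8 CPM, a change of 3.53 ± 0.23 (adjusted p 8.29e-10) with no overlap. RefSeq places FCGR1A on the opposite strand within the span of HIST2H2BF, and the strand setting of the counting is not given in the sources used here. Across the 63 members, 10 overlap another RefSeq gene, so their counts may hold reads of that gene.

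HIST1H3B (chr6:26031589-26032099), which encodes histone H3.1, was at 58.3, 43.3, 82.1 and 87.5 CPM after ERM enrichment and 5.76, 6.36, 6.75 and 7.71 CPM before. The groups did not overlap and the change was 3.37 ± 0.24 (edgeR adjusted p 2.75e-09). Among H4 genes, which encode the same protein from many loci, HIST1H4B (chr6:26026896-26027283) was at 13.2, 9.11, 24.0 and 24.9 CPM after and 0.480, 0, 0.185 and 0.293 CPM before, a change of 6.15 ± 0.57 (adjusted p 6.96e-08). HIST1H4I (chr6:27139282-27139678) was the single member called lower: 10.1, 14.2, 24.5 and 18.5 CPM after and 20.0, 24.1, 34.1 and 30.7 CPM before. The ranges overlap, the change was -0.65 ± 0.24 (adjusted p 0.0266), and the call held in 11 of 15 settings (adjusted p 0.0001 to 0.19), not with total-count scaling and not without enriched library 1 or 2 or input 3. HIST1H4I lies within the span of HIST1H2BK on the opposite strand, so reads of the 2 genes cannot be told apart without strand. The 4 tested members with no call at ERM had log2 fold changes of 1.11 (HIST2H4A), 0.77 (HIST2H2BC), 0.69 (HIST1H4J) and 0.29 (HIST1H2BH).

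**Figure D3:**
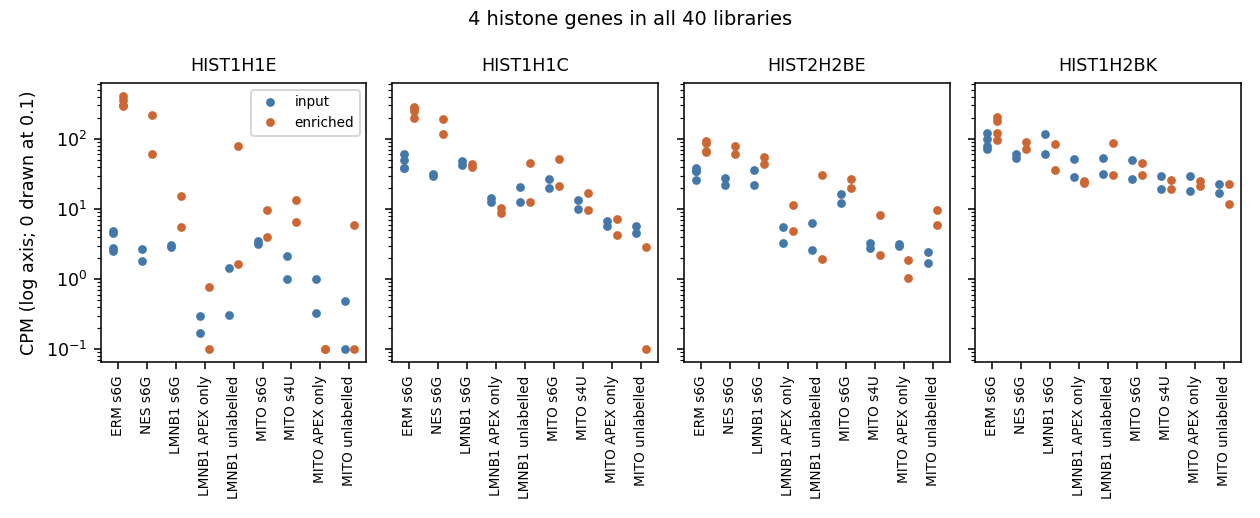
CPM (log axis) of HIST1H1E, HIST1H1C, HIST2H2BE and HIST1H2BK in all 40 libraries by construct and arm, input beside enriched; each point is 1 library and 0 is drawn at 0.1. HIST1H1E climbs from 2.50 to 4.80 CPM in ERM inputs to 297 to 413 CPM after enrichment, while HIST1H2BK moves from 72.9 to 121 CPM to 96.5 to 208 CPM.

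Most members also rose at NES, with 2 enriched and 2 input libraries. Of 49 tested members, 37 were higher and 0 lower, where 28.7% of all genes were called higher and 26.4% lower. All 3 tested H1 and 11 H2A genes rose, with 10 of 15 H2B, 4 of 8 H3 and 9 of 12 H4 genes. The groups did not overlap for 46 members, against 40.1% of all genes in that direction. The members' median log2 fold change was 1.84 (1.79 with the 3 members at 0 in the inputs set at their bound), against 0.01 for all genes. Members near 0 in the inputs were tested only through enriched libraries where they are high. Among the 22 members with at least 10 counts in every NES input, 19 were higher and 0 lower, with a median of 1.74. HIST1H1E was at 61.0 and 217 CPM after and 2.71 and 1.82 CPM before, a change of 5.95 ± 0.65 (edgeR adjusted p 1.07e-05). Its 2 enriched libraries differ from each other but are both far above the inputs. HIST1H1C was at 117 and 195 CPM after and 31.1 and 30.0 CPM before, 2.36 ± 0.26 (adjusted p 9.87e-07).

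HIST1H4B had 1 count over both NES inputs, and its ratio by counts was 79.2 with an exact 95% interval of 14.0 to 3155. HIST1H4A, HIST2H2AA3 and HIST1H2AE were at 0 in both inputs, and against a floor of 3 counts over the group they were at least 7.42-fold, 3.06-fold and 2.62-fold higher after enrichment. HIST2H2AC changed by 3.36 ± 0.55 (edgeR adjusted p 6.25e-05) and HIST1H3B by 2.58 ± 0.39 (adjusted p 2.45e-05). HIST3H2A was at 130 and 78.9 CPM after and 57.0 and 47.7 CPM before, 1.01 ± 0.22 (adjusted p 0.000789). HIST1H2BK (71.0 and 89.4 CPM after, 60.9 and 53.3 CPM before) was not called, at 0.50 ± 0.31 (adjusted p 0.184), but was called with the replicate as a block (0.50, adjusted p 0.00799). HIST1H4I was not called, at -0.08 ± 0.35 (adjusted p 0.853).

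The enrichment itself was not shown to differ between ERM and NES. The test of the difference called 0 members with edgeR, where 0.00640% of all genes were called higher in ERM and 0 lower. DESeq2 called 0 too, and 5 members had an unadjusted p under 0.05, as had 13.9% of all genes. These were HIST2H3D (ERM minus NES 2.59), HIST1H3A (2.22), HIST2H2BF (0.99), HIST3H2A (-0.62) and HIST1H3E (-0.71). With the replicate as a block, 1 member was called, HIST2H3D at 2.66 ± 0.71 (edgeR adjusted p 0.0339; 2.52% of all genes higher, 3.58% lower). The members called higher were 36 at both constructs, 8 at ERM alone and 1 at NES alone, and ERM had the larger number of libraries. The authors' deposited table for ERM over NES, whose header does not say which libraries entered, lists 51 of 62 members higher in ERM, 27 of them with an unadjusted p under 0.05 (43.5%) and 0 lower with such a p. Of all genes in that authors' deposited table, 4.52% had such a p and were higher, and HIST1H1C was at 0.76 and HIST1H2AG at 0.98 on the log2 scale. For comparison, the summed member level was 1940 CPM in ERM and 1188 CPM in NES after enrichment, and 528 and 374 CPM in the inputs.

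**Figure D4:**
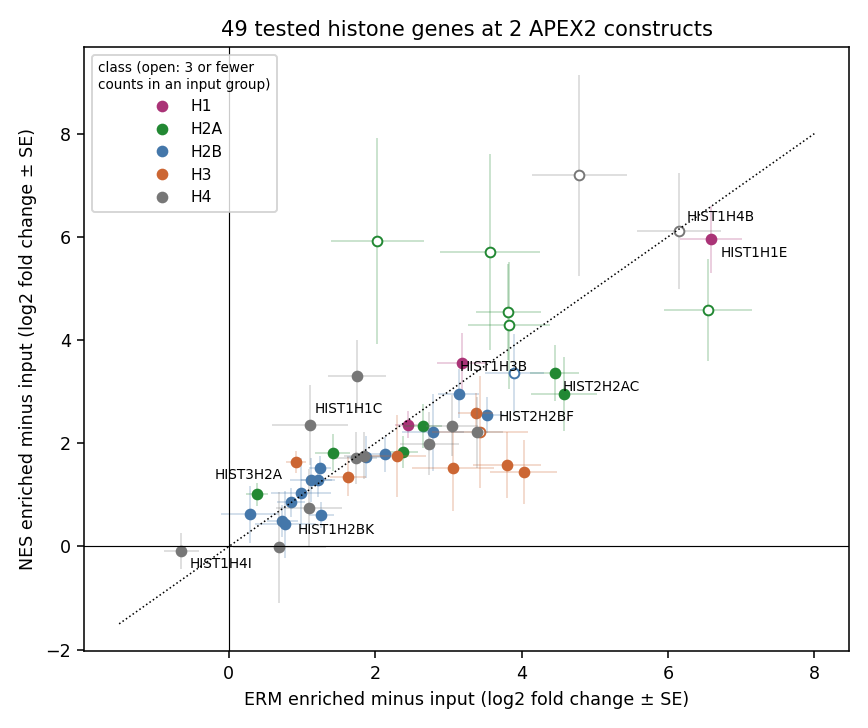
Log2 fold change of enriched over input (± SE) of the 49 tested histone genes at ERM (x) and NES (y), coloured by class; open points have 3 or fewer counts in an input group and the dotted line marks equal change. HIST1H1E lies at 6.59 and 5.95, and HIST1H4I at -0.65 and -0.08.

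Genes linked to histone mRNA, called histone mRNA factors below, were compared at the same constructs. They act in its transcription, processing or turnover, or are the cell-cycle genes CDK2, CCNE1 and CCNE2. Of these 19 genes, 11 rose and 6 fell at ERM, and 11 rose and 4 fell at NES. The shares over all genes were 34.3% higher and 28.9% lower at ERM, and 28.7% and 26.4% at NES. SLBP, which binds the stem-loop, rose by 1.29 ± 0.11 at ERM and 1.79 ± 0.17 at NES, and NPAT, the transcriptional coactivator of these genes, by 0.64 ± 0.12 and 0.53 ± 0.18 (edgeR). CASP8AP2 (1.61) and LSM11 (1.36), both of the histone pre-mRNA processing machinery, were among the factors that rose most at ERM. Other intronless mRNAs also rose: 11 of 11 tested rose at ERM (median 1.52) and 11 of 11 at NES (median 2.37), among them the transcription factor gene JUN (1.74 and 2.76) and CEBPA (1.87 at ERM).

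The replication-independent variant histones, whose genes mostly have introns and give polyadenylated mRNA, split instead. At ERM 6 of 12 rose and 6 fell (median -0.01), and at NES 6 rose and 3 fell (median 0.55). H2AFX, which encodes the damage-responsive H2A.X and can end in a stem-loop, rose by 1.13 at ERM and 1.84 at NES. The 2 genes for H3.3 went opposite ways. H3F3A fell by 1.36 at ERM and 0.86 at NES, and H3F3B rose by 0.74 at ERM and 1.14 at NES. Histone chaperones mostly fell at ERM, with 3 of 13 higher and 8 lower, as NAP1L1 (-1.81), SSRP1 (-1.61) and RBBP4 (-1.44), and at NES 3 were higher and 6 lower. S-phase genes were 8 higher and 11 lower of 23 at each of these constructs. Mitotic genes were 7 higher and 5 lower of 16 at ERM and 6 and 5 at NES. These counts stand beside 34.3% higher and 28.9% lower over all genes at ERM, and 28.7% and 26.4% at NES. Of 3 tested RNAs that can lack a polyA tail, 0 rose and NEAT1 fell at ERM (-0.87), with 0 higher and 1 lower at NES. Of the HEK293 marker genes, 0 rose and 1 fell at ERM and 2 rose and 0 fell at NES, of 4. COL1A1, which encodes a collagen of fibroblasts and bone, fell at both.

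At the nuclear lamina the unblocked edgeR fit called no member in any arm. In the s6G arm 0 of 41 tested members were called by edgeR, where 5.37% of all genes were called higher and 7.64% lower, and 1 had an unadjusted p under 0.05 (27.6% of all genes). The log2 fold change was above 0 for 37 of the 41, with a median of 0.96 against 0.13 for all genes, and 26 did not overlap with enriched above input, against 37.4% of all genes. HIST1H1E was at 5.56 and 15.4 CPM after and 2.89 and 3.10 CPM before enrichment, 1.98 ± 1.23 (adjusted p 0.319). HIST1H1C, at 43.4 and 40.3 CPM after and 48.4 and 42.5 CPM before, was not called and its groups overlap (0.03 ± 0.45, adjusted p 0.953). HIST3H2BB, an H2B gene of the HIST3 cluster, was at 35.4 and 39.5 CPM after and 19.3 and 17.6 CPM before, with no overlap and 1.17 ± 0.44 (adjusted p 0.101).

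Other fits called a few members in that arm. HIST3H2BB alone was called with the replicate as a block (1.17 ± 0.31, edgeR adjusted p 0.0256; 8.35% of all genes higher) and alone with DESeq2 (9.33%). A fit without the unlabelled arm called 3 members (HIST3H2BB, HIST1H4E and HIST4H4; 12.7% of all genes), and a fit of the 4 compared libraries called 5 of the members (10.3%). The authors' deposited table for LMNB1 gives an adjusted p for 32 members in the s6G arm, of which 5 were under 0.05 and all higher: HIST1H1E (log2 1.79, adjusted p 0.0324), HIST1H4E (1.48, 0.0135), HIST1H4H (1.42, 0.0248), HIST1H3H (1.05, 0.0435) and HIST3H2BB (1.00, 0.0228). The header of the authors' deposited table does not name the sides of the ratio, and its sign matched enriched minus input for 38 of 41 members. For the APEX-only arm the authors' deposited table has an adjusted p for 4 members, with 0 under 0.05. Of the histone mRNA factors in the s6G arm, 3 of 19 rose and 1 fell, with NPAT at 0.85 ± 0.26 (edgeR adjusted p 0.048) and SLBP not called at -0.11 ± 0.21. Of the intronless mRNAs 2 of 12 rose and 0 fell, and of the variant histones 0 of 12 rose and 4 fell. The shares over all genes in this arm were 5.37% higher and 7.64% lower.

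The other LMNB1 arms gave no calls in the unblocked edgeR fit. With APEX only, 0 of 41 members were called by edgeR (0.411% of all genes higher, 1.02% lower) or DESeq2, 0 had an unadjusted p under 0.05 (15.8% of all genes), and the median was 0.33. In the unlabelled arm 0 of 41 were called by edgeR (0.0242% of all genes higher, 0.0121% lower), 17 had an unadjusted p under 0.05 (17.3% of all genes), DESeq2 called 3 (1.34% of all genes higher), and the median was 1.72. There HIST1H1E was at 79.3 CPM in enriched library 1 and 1.67 CPM in enriched library 2, against 1.46 and 0.306 CPM in the inputs. The result depended on which enriched library was kept, in fits where the lone library is assumed to vary like the other groups: without library 2, 14 members were higher and the median was 2.94, and without library 1, 0 were higher, 1 (HIST1H2BN, -7.85) was lower and the median was -0.41. Tests of the difference between LMNB1 arms called 0 members with edgeR or DESeq2, where 1.51% of all genes were called higher and 1.19% lower for s6G against unlabelled and 0 for the other pairs. At an unadjusted p under 0.05 were 0 members for s6G against APEX only (12.2% of all genes; median 0.47), 3 for s6G against unlabelled (20.6%) and 4 for APEX only against unlabelled (10.6%). Without unlabelled enriched library 1 or 2 the calls were 3 and 2 for s6G against unlabelled and 1 and 1 for APEX only against unlabelled.

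Some members were enriched less at the lamina than at ERM or NES. In a fit of all 40 libraries, the s6G enrichment was lower at LMNB1 than at ERM for 10 of 51 tested members and higher for 0, with a median difference of -1.48 against 0.03 for all genes. Of all genes 6.92% were called higher and 10.7% lower. Members rare in the inputs can enter this fit through enriched libraries where they are high, and that can favour a lower value at LMNB1. HIST1H2BL was at 0.600 and 1.30 CPM after LMNB1 s6G enrichment and at 6.02 to 8.88 CPM after ERM enrichment. The share of members called lower is therefore not read as a result about them. The 10 were HIST2H2AC (-4.75 ± 0.90, edgeR adjusted p 0.000295), HIST1H1E (-4.73 ± 1.31, 0.0141), HIST1H2AH (-4.43), HIST1H2BL (-4.06), HIST1H4C (-3.42), HIST1H2BC (-3.14), HIST1H1C (-2.54 ± 0.45, 0.00014), HIST1H3B (-2.41), HIST1H2BJ (-1.89) and HIST1H2AC (-1.52). Against NES, 4 of 51 were lower and 0 higher, with a median of -1.09 (7.04% of all genes called higher and 11.3% lower), so this share is no larger than the background. They were HIST2H2AC (-3.68 ± 1.04, 0.0103), HIST2H4B (-2.92 ± 1.03, 0.0428), HIST1H1C (-2.47 ± 0.52, 0.000862) and HIST1H2AC (-1.94 ± 0.63, 0.0279). Both tests use the same LMNB1 libraries. Leaving out 1 library gave 3 to 10 calls against ERM, with 3 to 6 when any of the 4 LMNB1 s6G libraries was left out, and 1 to 4 against NES. With the replicate as a block the calls were 16 against ERM (16.3% of all genes lower) and 15 against NES (16.9%). In fits of only the libraries compared they were 18 of 49 tested against ERM (18.8% of all genes lower) and 13 of 46 against NES (19.6%). Against MITO 0 members were called by edgeR (0.0828% of all genes higher, 0.694% lower) or DESeq2, with 2 at an unadjusted p under 0.05 (11.5% of all genes).

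At the mitochondrial matrix no member was called by the unblocked edgeR fit in the s6G, s4U or APEX-only arms. In the s6G arm 0 of 30 tested members were called by edgeR (0.290% of all genes higher, 0.0264% lower) or DESeq2, 2 had an unadjusted p under 0.05 (8.86% of all genes), and the median was 0.53. In the s4U arm 0 of 30 were called by the unblocked fit (0.112% higher, 0 lower), or by DESeq2, with 10 at an unadjusted p under 0.05 (6.93% of all genes) and a median of 1.12. With the replicate as a block 6 rose (1.76% of all genes higher), among them HIST1H1E (2.65), HIST1H3B (3.61) and HIST1H4E (3.93). HIST1H1E was at 6.48 and 13.3 CPM after and 1.02 and 2.16 CPM before in that arm. With APEX only 0 of 30 were called by edgeR (0.251% higher, 0.0198% lower) or DESeq2, 1 had an unadjusted p under 0.05 (8.86% of all genes), and the median was 0.19. Tests of the difference in enrichment between these arms called 0 members and 0 of all genes with edgeR, and 0 members with DESeq2. At an unadjusted p under 0.05 were 1 member for s6G against APEX only (median 0.09; 2.45% of all genes), 2 for s4U against APEX only (0.78; 2.74%) and 2 for s6G against s4U (-0.44; 0.581%). With total counts in place of TMM the medians of all genes moved to -0.87 with s6G and -0.74 with APEX only, and the members' medians to -0.35 and -0.46. The members' medians were thus above those of all genes under both scalings.

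The authors' deposited table of log2(TPM + 1), in which the values of both replicates were added, corrects member levels for length. The lengths used are not given, and ranks between members depend on them. In the s6G input HIST1H2AC (RefSeq span 519 bases) had 12.6 TPM and HIST1H2AG (493 bases) 43.9 TPM. By counts HIST1H2AC was the higher of these there, at 18.3 and 12.5 against 6.97 and 9.24 CPM. In the authors' deposited table the sum over members was lower in the enriched than in the input column with s6G (799 and 3467 TPM), s4U (952 and 2127 TPM) and APEX only (462 and 2053 TPM), and higher in the unlabelled arm (2334 and 1553 TPM). The s6G ratio from counts was above 1 with TMM (1.34) and below 1 with total counts (0.740), so its direction depends on scaling. HIST1H2BK had the highest TPM among members in all 8 columns of that authors' deposited table, with 1240 TPM (35.8% of the members' sum) in the s6G input, followed there by HIST3H2A at 610 TPM and HIST1H1C at 448 TPM. The median member stood at 12.6 TPM in the s6G input and 3.19 TPM in the APEX-only input of the authors' deposited table.

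Members were called higher in the unlabelled MITO arm, on few counts. There 5 of 30 were higher and 0 lower (5.78% of all genes higher, 4.09% lower): HIST1H2BD (2.84 ± 0.72, edgeR adjusted p 0.0228), HIST1H2BJ (2.88 ± 0.79, 0.0307), HIST4H4 (5.04 ± 0.94, 0.0105), HIST1H2BC (6.04 ± 1.21, 0.0123) and HIST1H2BG (0.0228). HIST1H2BG had 9 counts after enrichment and 0 before, at least 21.9-fold higher, and HIST1H2BC had 12 counts and 1, a ratio of 87.8 with an exact 95% interval of 13.0 to 3753. HIST1H2BG was at 17.6 and 5.73 CPM after enrichment in this arm and at most 1.48 CPM in the other MITO libraries. It passed the expression filter only through the group where it is high, so its call carries no weight. HIST1H2BD was at 11.7 and 11.5 CPM after and 1.97 and 1.44 CPM before. Leaving out 1 library gave 0 to 4 calls, with 0 without either input, and 8 of the 30 members were at 0 in a group.

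The inputs differed by treatment. Before any enrichment, the 10 s6G inputs held 265 to 621 CPM of member RNA (median 423) and the 10 other inputs 73.4 to 196 CPM (median 108), so the ranges did not overlap. Within constructs the s6G input was 3.01 times the APEX-only input in MITO (271 against 90.1 CPM) and 3.19 times in LMNB1 (490 against 154 CPM), and the s4U input 1.26 times in MITO. The class ratios ran from 2.75 (H2B) to 4.13 (H1) in MITO and from 3.02 (H4) to 3.60 (H1) in LMNB1. With 2 libraries a group edgeR called 0 of 30 members in MITO (0.0528% of all genes higher, 0 lower; 19 members and 8.49% of all genes at an unadjusted p under 0.05, median 2.15) and 0 of 41 in LMNB1 (0.109% higher, 0.0182% lower; 16 members and 11.5% of all genes at an unadjusted p under 0.05, median 1.88). DESeq2 called 6 members higher in each, against 0.422% of all genes in MITO and 0.968% in LMNB1. In LMNB1 edgeR called 6 with the replicate as a block across arms (0.648% of all genes higher) and 3 without the unlabelled arm (0.643%). The s4U and APEX-only inputs of MITO were not told apart for any member by edgeR or DESeq2 (median 0.62; 1 member and 3.85% of all genes at an unadjusted p under 0.05), nor were the APEX-only and unlabelled inputs (0 members at such a p in either construct, with 0.191% of all genes in MITO and 0.641% in LMNB1). In MITO the median was 1.49 for s6G over s4U inputs, with 0 calls by edgeR and 12 members at an unadjusted p under 0.05 (4.67% of all genes).

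A fit of the s6G and APEX-only inputs of both constructs together, with the construct as a term, was added after the data were seen. It called 22 of 29 tested members higher and 0 lower, where 9.02% of all genes were called higher and 8.80% lower. All 29 were above 0, 18 did not overlap (10.7% of all genes), and the median was 2.07 against -0.00 for all genes. Leaving out each of the 8 libraries gave 17 to 22 calls. HIST2H2BE was at 12.2 and 16.3 CPM in MITO and 36.2 and 22.3 CPM in LMNB1 with s6G, against 3.01 and 3.14 and 5.59 and 3.32 CPM with APEX only, a change of 2.51 ± 0.28 (edgeR adjusted p 0.000852). HIST1H1C was at 20.0, 27.2, 48.4 and 42.5 CPM with s6G and 6.83, 5.78, 14.2 and 12.5 CPM with APEX only, 1.86 ± 0.18 (adjusted p 0.000519). Both genes were higher with s6G in every library of the same construct.

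HIST1H2AC was at 18.3, 12.5, 49.9 and 25.2 CPM with s6G and 1.81, 1.82, 9.82 and 3.62 CPM with APEX only, also without overlap (2.74 ± 0.36, edgeR adjusted p 0.00182). The largest change was HIST2H2BF (3.20 ± 0.57, 0.00532), and the smallest called was HIST1H2BK (0.96 ± 0.29, 0.0438), a call lost on leaving out any of 5 of the 8 libraries. HIST1H4I, lower after ERM enrichment, was higher here (1.28 ± 0.31, 0.0185). HIST1H2BC (1.40 ± 0.67) and HIST1H3E (1.29 ± 0.43) were among the 7 not called. In the same comparison SLBP (-0.00 ± 0.15) and NPAT (-0.10 ± 0.20) were not called, 0 of 23 S-phase genes rose and 5 fell, and 0 of 16 mitotic genes rose and 3 fell. Of the intronless mRNAs 5 of 12 rose and 1 fell, and of the variant histones 2 of 12 rose and 0 fell. The shares over all genes in this comparison were 9.02% higher and 8.80% lower.

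Over all 20 inputs, 11 of the 63 members were above every other input in every s6G input, as were 405 of 29526 genes (1.37%). They were HIST1H1T (H1), HIST1H2AC, HIST1H2AG and HIST3H2A (H2A), HIST1H2BD, HIST2H2BE, HIST2H2BF and HIST3H2BB (H2B), HIST1H3B (H3), and HIST1H4E and HIST1H4H (H4). HIST1H1T, the only H1 gene here, was at 0.160 to 0.723 CPM with s6G and had 64 counts over all 40 libraries. The better counted H1 genes overlapped: HIST1H1C ran from 20.0 to 61.8 CPM with s6G and from 4.53 to 20.7 CPM without. HIST1H1E ran from 1.82 to 4.80 and from 0 to 2.16 CPM. HIST3H2A ran from 44.2 to 85.1 CPM with s6G and from 11.1 to 30.7 CPM without. HIST1H2BK is not among the 11. ERM and NES have s6G libraries only, so over all 20 inputs the construct and the treatment cannot be told apart in part.

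**Figure D5:**
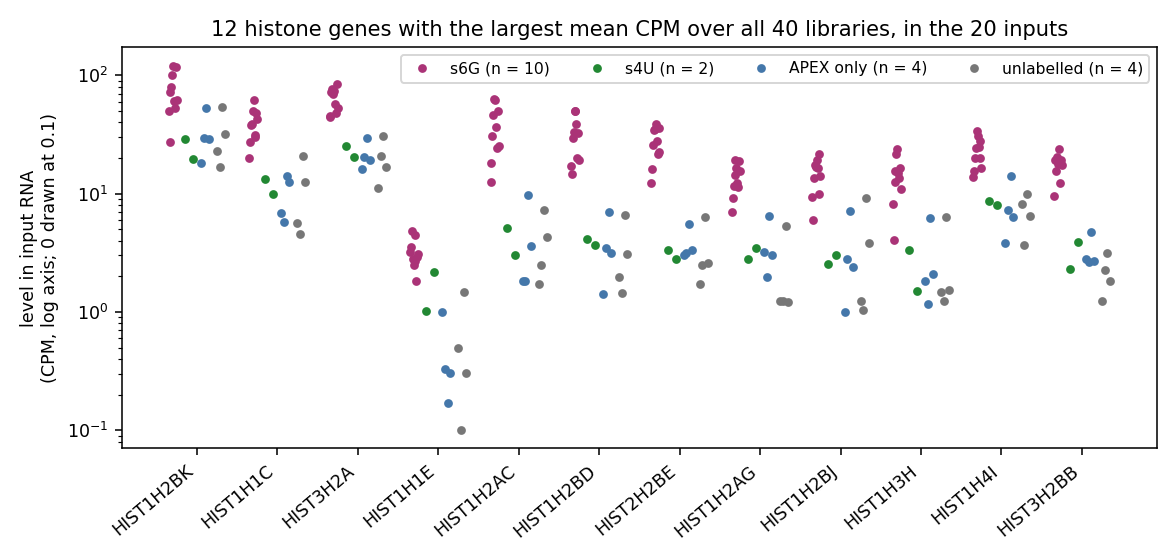
Level in input RNA (CPM, log axis, 0 drawn at 0.1) in the 20 inputs, for the 12 members with the largest mean CPM over all 40 libraries, coloured by treatment; each point is 1 library. HIST1H2AC and HIST3H2A separate the 10 s6G inputs from the 10 others with no overlap, and HIST1H2BK and HIST1H1C do not.

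Among 10102 genes compared with the members' summed log2 CPM over the 20 inputs, the most alike by Pearson's r were MTPN (0.97), SPCS1 (0.96), SNRPD3 (0.95), ETV3 (0.94) and TMED4 (0.94). Over the 20 enriched libraries they were ZNF696, AP3S2 and ZNF746 (0.92 each) and ZSCAN2 and TMEM115 (0.91 each). The points of each set share constructs and treatments, and the values are a description.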

How the data were processed

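The 40 polyA-selected libraries of HEK293T cells were analysed from the authors' deposited table of gene counts, whole numbers for 57992 genes. Per the submitters' processing notes, the tools were DESeq2, deepTools 2.5.3, HTSeq 0.7.2, HISAT2 2.1.0 and SAMtools, with GRCh38/hg38 as build. Which annotation was counted, and whether by strand, is not given in the sources used here. The authors also deposited log2 fold changes with p-values and a mean signal (ERM over NES, unadjusted; LMNB1, adjusted), and log2(TPM + 1) for MITO, whose replicates were added. These were printed only as the authors' values. All 40 count columns were matched to libraries by name (0 others).

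The members and gene lists were chosen with earlier results of these data known. Libraries were grouped by title. The fits used R 4.3.3 and edgeR 4.0.16 (TMM, default expression filter, robust quasi-likelihood, Benjamini-Hochberg), as group means in 3 fits: MITO (16 libraries, 15151 genes), ERM with NES (12, 15619) and LMNB1 (12, 16525). Differences in enrichment between constructs came from 1 fit of all 40 libraries (19314 genes). The 8-library input fit (14047 genes) was chosen after seeing the data. The scripts were tested on simulated data. Alternatives were RLE and total-count scaling, no and stricter filters, DESeq2 1.42.0, a replicate block, fewer libraries in the fit, and leaving out each library.

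By the series design text, an enriched and an input library with the same number came from 1 replicate, and their deviations from group means correlated at 0.04 to 0.64 over genes in the 9 arms. Members were named as the 12 with the highest mean CPM, the top member per class, and up to 6 called members at each end per comparison, and genes of the 10 lists by SLBP, NPAT and up to 3 called genes per list; others were chosen after their values were seen, HIST1H4I, HIST1H4B and HIST2H2AC for printing of sequence among them. Symbols and positions are from RefSeq GRCh38.p14. Exact intervals and the floor of 3 counts cover counting error only. One marker of another cell type is not reported here.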

Additional observations from a re-analysis of the deposited data

Results flagged for a closer look

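Enrichment with s6G was called different between constructs for 14 results, each by an interaction test over all 40 libraries. At LMNB1 compared with ERM the log2 enrichment differed by -4.75 for HIST2H2AC, -4.73 for HIST1H1E, -4.43 for HIST1H2AH, -4.06 for HIST1H2BL, -3.42 for HIST1H4C, -3.14 for HIST1H2BC, -2.54 for HIST1H1C, -2.41 for HIST1H3B, -1.89 for HIST1H2BJ and -1.52 for HIST1H2AC. At LMNB1 compared with NES it differed by -3.68 for HIST2H2AC, -2.92 for HIST2H4B, -2.47 for HIST1H1C and -1.94 for HIST1H2AC. The 10 of 51 tested members lower against ERM stand beside 10.7% of all genes and the 4 of 51 against NES beside 11.3%, so the second share is no larger than that of all genes. Leaving out 1 library gave 3 to 10 and 1 to 4 calls. Both comparisons use the same LMNB1 libraries. Members rare in the inputs can enter this fit through enriched libraries where they are high, which can favour a lower value at LMNB1. Neither share is therefore read as a result about the members. Where groups had 4 libraries, no library stood apart from its group for any of the 26 results checked.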

How the results depend on the processing

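Depth limits the members most in the unlabelled enriched libraries, and 12 members have under 100 counts in all. With the replicate block, the calls were 16 for LMNB1 against ERM, 15 for LMNB1 against NES, 1 for ERM against NES, 6 for MITO s4U and 1 for LMNB1 s6G. In fits of only the libraries compared, they were 18 of 49 and 13 of 46 for LMNB1 against ERM and NES (18.8% and 19.6% of all genes lower), 5 for LMNB1 s6G and 1 for unlabelled MITO (2.47% of all genes higher), with medians of 1.99 in unlabelled MITO and 1.13 in unlabelled LMNB1. With total counts, calls were 2 for LMNB1 against NES and 2 against MITO, medians were -0.35 (MITO s6G) and -0.46 (MITO APEX only), and summed enriched over input ratios 0.740 and 0.693 there and 1.14 for LMNB1 APEX only (1.24 without the members with a polyadenylated form). DESeq2 called 1 in LMNB1 s6G, 3 in unlabelled LMNB1 and 6 in the s6G inputs of each construct. Without the unlabelled arm, 3 were called in LMNB1 s6G and 3 in its inputs, and 6 in its inputs with the replicate block across arms. The unlabelled MITO median was 0.00 with no filter and 1.98 with the stricter filter. The causes were not tested.

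Leaving out 1 library gave 39 to 45 calls for ERM, 28 to 36 for NES, 3 to 10 for LMNB1 against ERM, 1 to 4 against NES, 0 to 1 for MITO s4U, 0 to 4 for unlabelled MITO (medians from 0.00 to 1.14), 0 to 14 for unlabelled LMNB1 (medians -0.41 to 2.94), 0 to 3 for LMNB1 s6G against unlabelled and 0 to 1 for APEX only against unlabelled. The medians ran from -0.02 to 0.47 for MITO APEX only (0.00 without enriched library 2) and from -0.32 to 0.76 for LMNB1 APEX only, and HIST1H4I at NES from -0.55 to 0.29 (0.09 without input 1). Leaving out MITO libraries was not run in the 40-library fit. Of the other results, 456 values of counts, medians and sums kept their direction and size, as did 383 of single members. Among counts, medians and sums, 42 values moved and 12 reversed. Among single members, 21 values were weaker, 2 stronger and 2 reversed. Median-ratio scaling moved the median of all genes by 0.12 to 0.18 in the 40-library fit, and total counts by up to 1.16.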

Other observations

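Some members known from the testis or counted very rarely were seen in few libraries. HIST1H1T, the testis linker histone gene, was at 0.160 to 0.723 CPM in the 10 s6G inputs and at 0 in all 10 others. HIST1H1A, which encodes H1.1, was at 0 to 0.390 CPM in s6G inputs and at 0 in the others. HIST1H2BA, a testis H2B gene that lies within SLC17A1 on the opposite strand, was at 0 in all 20 inputs. None of the 3 had enough counts for a test of enrichment at ERM or NES.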
